A study of Mus musculus with 22 samples.

Results

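The genes described here are the sodium, calcium and potassium channel subunits of the mouse retina, taken as every gene whose symbol in the platform annotation starts with Scn and a digit, with Cacna, Cacnb or Cacng, or with Kcn. The rule found 119 genes among the 18194 that had a probe set with a single symbol. By subfamily these were 8 sodium channel alpha and 3 beta subunits, 9 calcium channel alpha1 subunits (7 of the high voltage and 2 of the low voltage kind), 4 alpha2delta, 3 beta and 8 gamma subunits, 22 voltage-gated potassium (Kv) pore subunits, 9 electrically silent Kv subunits and 12 Kv auxiliary subunits. The Kcn prefix also took in genes that are not opened by a voltage sensor alone. By prefix, 11 were placed among the calcium- or sodium-activated potassium channels and 15 among the inward rectifiers. The others were 12 two-pore domain channels and 3 noncoding RNAs named after a neighbouring channel gene.

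Each sample was 1 retinal cell, picked by pipette, reverse transcribed, PCR amplified and hybridised to its own Affymetrix mouse expression array. The 13 ganglion cells came from embryonic day (E) 12.5 (3 cells), E13.5 (1 cell), E14.5 (2 cells), E15.5 (3 cells) and postnatal day 0 (P0, 4 cells). The 6 amacrine cells came from E16.5 (1 cell, J6) and P0 (5 cells), and the 3 photoreceptors from P0 (2 cells) and the adult (1 rod). The labels give the CD1 background strain for 9 of the 22 cells and no genotype, treatment or animal for any cell. Cells of a stage may therefore share an animal. P-values measure only the spread between these samples, which limma pooled over genes of like level. The authors named each cell's type after profiling it, so the types are not independent of the arrays.

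Voltage-gated channels are built around a pore-forming subunit that senses membrane voltage and are tuned by auxiliary subunits. Sodium channels start action potentials, calcium channels couple voltage to transmitter release and calcium signals, and potassium channels repolarise the membrane and set its resting potential. In the retina, ganglion cells send action potentials along the optic nerve, many amacrine cells signal over short distances without an axon, and rods respond to light with graded potentials.

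A gene is called held in a cell here where its signal was 1000 or more, and a gene's level is that of the probe set with the highest mean log2 signal over the 22 cells. Arrays carried 1518 to 4352 held genes per cell. One array, of amacrine cell B1 at P0, was deposited with a 2% trimmed mean of 18.1, against 500 for the other 21, and was multiplied by 27.6. The median signal over probe sets was 192 in the adult rod and 198 in amacrine cell J6, against at most 79.1 in the other cells. Of 9 measured ganglion cell markers, ganglion cells held 6 to 9, amacrine cells 0 to 4 and photoreceptors 1. Of 11 amacrine markers, amacrine cells held 4 to 7, ganglion cells 1 or 2 and photoreceptors 1 to 3. Of 10 photoreceptor markers, photoreceptors held 7 to 10, ganglion cells 0 or 1 and amacrine cells 0. The 2 E14.5 ganglion cells also held 6 and 10 of 12 progenitor and cell cycle genes, 4 of 10 lens and pigment epithelium genes each and 2 and 3 of 5 blood genes. The E15.5 ganglion cells held 2 to 3 blood genes. Of the 2 P0 photoreceptors, the lowest and highest counts were 0 and 6 of the 12 progenitor and cell cycle genes and 0 and 3 of 8 glial genes.

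Most channel subunits were held in few cells or in none. Of the 119 genes, 63 (52.9%) were held in at least 1 cell, against 60.4% of all genes on the array. Only 31 (26.1%) were held in at least 3 cells, against 39.5% of all genes, and 24 were held in a single cell. Cacng4, which codes for an auxiliary subunit of AMPA-type glutamate receptors, was held in 12 cells and was the 1 member held in at least 11. The share of all genes held that widely was 11.2%. The arrays give no detection calls, so a gene that was not held may still have been transcribed.

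Ganglion cells held 1 to 22 subunits each, with a median of 9. Amacrine cells held 6 to 15, with a median of 9.5, and the 3 photoreceptors held 1, 4 and 16. The lowest counts were in the E15.5 ganglion cell C7, which held only Scn3b, and in the P0 photoreceptor E1, which held only Cacna2d1. The highest count was in the P0 ganglion cell F1. Cells that held more genes of any kind tended to hold more subunits, with a Pearson correlation of 0.50 and a Spearman correlation of 0.38 across the 22 cells, which differ in type and stage. Over the cells of each type together, 44 subunits were held by at least 1 ganglion cell, 33 by at least 1 amacrine cell and 20 by at least 1 photoreceptor. Of the 63 held anywhere, 17 were held in ganglion cells alone, 7 in amacrine cells alone, 11 in photoreceptors alone and 6 in all 3 types. All 11 held in photoreceptors alone were held by the adult rod only, whose array had the raised median signal given above. The types differ in their number of cells, so these counts are not rates. The same counts were not made over all genes, so they do not set the subunits apart from other genes.

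**Figure D1:**
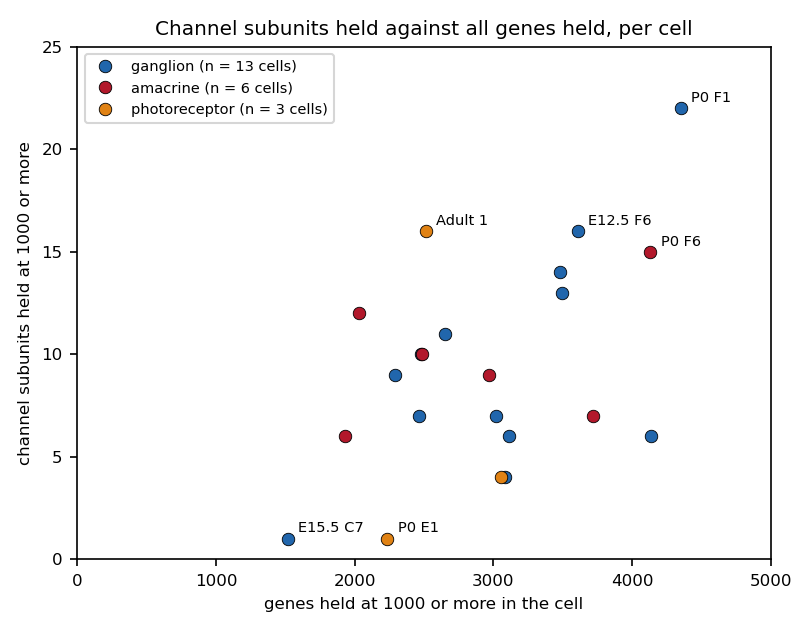
Channel subunits held at a signal of 1000 or more (vertical axis, number of genes) against all genes held (horizontal axis, number of genes) in each of the 22 cells, coloured by cell type. P0 ganglion cell F1 stands highest at 22 subunits, and the adult rod holds 16 while the P0 photoreceptors hold 1 and 4.

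Sodium channel pore subunits were held by 11 of 13 ganglion cells, 2 of 6 amacrine cells and 1 of 3 photoreceptors. Scn3a, a sodium channel of the embryonic and newborn nervous system, was held in 8 ganglion cells and 1 amacrine cell. Its signal was 9399, 886 and 7945 in the E12.5 ganglion cells, 3146.5 in the E13.5 cell, under 200 in both E14.5 cells, and 6033, 1476 and under 200 in the E15.5 cells. In the P0 ganglion cells A3, A6, C6 and F1 it was 4876, 601, 3819 and 6143. Among amacrine cells it was 2052.5 in J6 and 376 in B1, and under 200 in the other 4, as in all 3 photoreceptors. The E16.5 amacrine cell therefore lay within the range of the ganglion cells, while every P0 amacrine cell lay below every P0 ganglion cell.

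Scn8a, a sodium channel of axon initial segments and nodes of Ranvier, was held in 6 cells of all 3 types. It reached 8755 and 2427 in E12.5 ganglion cells E4 and F3, 6872 in E14.5 cell D8, 2364 in P0 ganglion cell F1, 1354 in amacrine cell B1 and 7018 in P0 photoreceptor H1. Scn9a, best known from peripheral sensory neurons, was held in 5 ganglion cells only, at 2296.5 and 3407 in E12.5 cells F3 and F6 and at 2974, 33309 and 2995 in P0 cells A3, A6 and F1. It was under 200 in the other 17 cells. No cell held Scn7a, Scn10a or Scn11a.

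The 4 P0 ganglion cells differed in the set of sodium channel pores they held. Cell C6 held Scn3a alone, A6 held Scn2a (17483) and Scn9a, A3 held Scn1a (4648), Scn3a and Scn9a, and F1 held Scn1a (2272), Scn3a, Scn8a and Scn9a. Scn1a and Scn2a, sodium channels of mature brain neurons, were held in no embryonic cell and no cell of another type, and were named after their values were seen. Each E12.5 ganglion cell held 2 sodium pores: Scn3a and Scn8a in E4, Scn8a and Scn9a in F3, and Scn3a and Scn9a in F6. The E14.5 cell E1 and the E15.5 cell C7 held none. Scn3a and the calcium channel Cacna1b were each held in 9 cells and together in 7, with a Pearson correlation of log2 signal of 0.64 over the 22 cells, given as a description.

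The sodium channel beta subunit Scn3b, an auxiliary subunit that modifies gating and surface levels, was held in 7 ganglion cells and in no other cell. Its signal was 13162, 438 and 4872 in the E12.5 cells, under 200 in the E13.5 cell and in both E14.5 cells, and under 200, 2133 and 4654 in the E15.5 cells B1, B5 and C7. The P0 ganglion cells had 6204.5, 5496, 418 and 5801 in A3, A6, C6 and F1, with C6 the low cell. All 6 amacrine cells and both P0 photoreceptors were under 200, and the adult rod stood at 205.5. Scn2b and Scn4b were held in no cell.

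**Figure D2:**
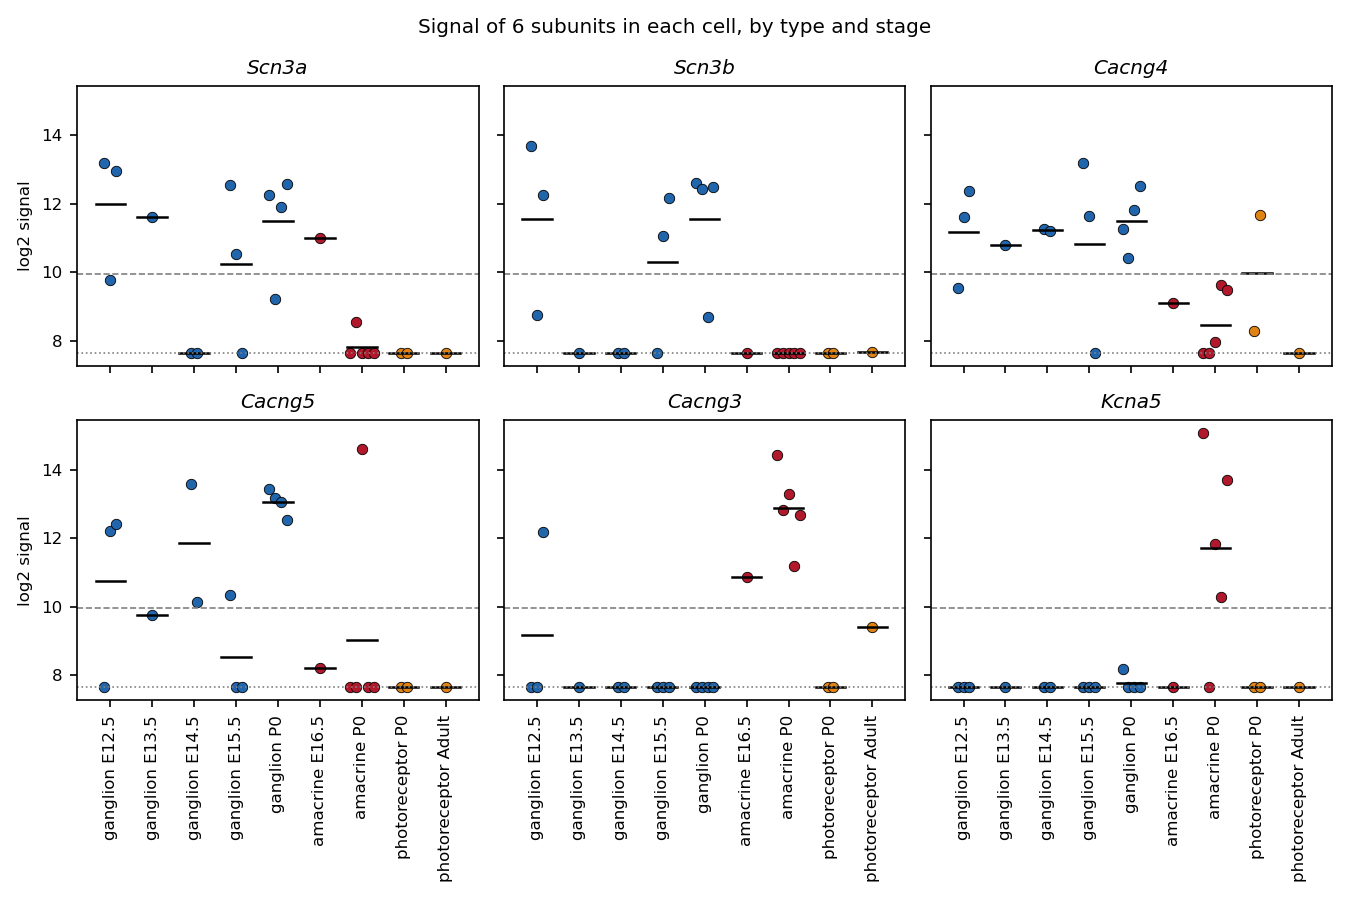
Log2 signal of Scn3a, Scn3b, Cacng4, Cacng5, Cacng3 and Kcna5 in each cell (1 point per cell) by cell type and stage, with the mean of each group as a black line, the floor of 200 dotted and the level of 1000 (9.97) dashed. Scn3a, Scn3b and Cacng4 lie higher in all 4 P0 ganglion cells than in any P0 amacrine cell, while Cacng3 is above 1000 in all 6 amacrine cells and in 1 ganglion cell.

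Among calcium channel pores, Cacna1b, the presynaptic N-type channel, was held in 8 ganglion cells and 1 amacrine cell. In ganglion cells its signal had a median of 5384 and ran from under 200 in E14.5 cell D8, E15.5 cell C7 and P0 cell A3 to 14793 in E15.5 cell B1 and 14804 in P0 cell A6. All 3 E12.5 cells held it, at 2962.5 or more. In amacrine cells it was at most 1030, in J6, and in photoreceptors at most 473. Cacna1d, an L-type channel that opens at relatively low voltage, was held in 2 ganglion and 2 amacrine cells, with 17334 in P0 amacrine cell D1 and 8075 in E15.5 ganglion cell B1. The low voltage T-type channel Cacna1h was held in 10 cells: 6 ganglion cells, 3 P0 amacrine cells and P0 photoreceptor H1. Its signal was 12004.5 in E12.5 ganglion cell E4, at most 2513 in amacrine cells and 4345 in photoreceptor H1, so the types overlapped. Some calcium channel pore was held by 10 of 13 ganglion cells, all 6 amacrine cells and 2 of 3 photoreceptors.

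Cacna2d1, an alpha2delta subunit that raises calcium channel surface levels, was held in 9 cells. It was the 1 member held in at least 2 photoreceptors, at 6379 in P0 cell E1 and 1088 in the adult rod. It was also held in 6 ganglion cells at 2955 to 10956, of which F1 was the 1 cell of P0, and in amacrine cell A4 at 12660.5. Cacnb1, a cytoplasmic beta subunit that traffics the pore to the membrane, was held in 3 embryonic ganglion cells, with 9238 in the E13.5 cell, and in P0 amacrine cell G3 at 5970. In the P0 ganglion cells it was 762.5 in F1 and under 200 in the other 3. Cacnb2 and Cacnb4 were held in no cell.

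Among the gamma subunits, Cacng2, Cacng3, Cacng4 and Cacng5 carry calcium channel names but are known mainly as auxiliary subunits that traffic and gate AMPA receptors. Cacng3 was held in all 6 amacrine cells, at 1855 in E16.5 cell J6 and 22286, 7178, 9928, 2319 and 6582 in P0 cells A4, B1, D1, F6 and G3. Of 13 ganglion cells only E12.5 cell F6 held it, at 4672, and the other 12 were under 200. The adult rod stood at 678 and the P0 photoreceptors under 200.

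Cacng4 showed the opposite distribution. It was held in 11 ganglion cells, at 1360 to 9375, with E12.5 cell E4 at 741 and E15.5 cell C7 under 200. No amacrine cell held it, and their signals ran from under 200 to 786.5. P0 photoreceptor H1 held it at 3254. Cacng5 was held in 9 ganglion cells and 1 amacrine cell, and in the 4 P0 ganglion cells (A3, A6, C6 and F1) it had 10990, 9248, 8462 and 5894. Among amacrine cells it was 25084 in D1, 298 in J6 and under 200 in the other 4, and in all photoreceptors it was under 200. Cacng4 and Cacng5 were held together in 9 cells, all of them ganglion cells and 4 of them of P0. Cacng2, the founding member of the AMPA receptor auxiliary family, was held in 2 embryonic ganglion cells and 2 P0 amacrine cells, at 2376 to 12406.

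The 250 bases before each annotated start of Cacng5 are shown because all 4 P0 ganglion cells held this gene and 1 of 6 amacrine cells did. They are from RefSeq on GRCm38.p6, read 5′ to 3′ on the gene's strand, at chr11:107911363-107911612 and chr11:107915056-107915305 (minus strand) for the 2 listed starts of Cacng5. Capitals mark matches on either strand to CCCNNGGG, a palindrome bound by Ebf factors, and to CAGCTG, an E-box.
Cacng5 first start: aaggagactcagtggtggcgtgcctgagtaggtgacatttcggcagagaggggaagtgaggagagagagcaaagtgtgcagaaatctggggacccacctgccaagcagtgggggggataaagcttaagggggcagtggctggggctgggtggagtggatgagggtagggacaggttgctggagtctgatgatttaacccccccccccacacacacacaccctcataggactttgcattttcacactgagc
Cacng5 second start: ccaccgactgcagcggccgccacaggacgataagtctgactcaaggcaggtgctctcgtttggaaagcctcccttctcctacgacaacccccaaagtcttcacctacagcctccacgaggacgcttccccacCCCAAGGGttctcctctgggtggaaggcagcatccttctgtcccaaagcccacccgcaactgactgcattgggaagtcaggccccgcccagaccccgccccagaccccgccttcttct
The second Cacng5 window held 1 Ebf-type match 118 bases before the start, and the first held none of the motifs. GCCNNNGGC, the AP-2 half-site pair, and the E-box were in neither Cacng5 window. The window of Cacng3, which all 6 amacrine cells held, is not printed here. It also held 1 Ebf-type match, 176 bases before the start, with 1 E-box 48 bases before it and no AP-2 letters. Among 32851 windows of the same length, 11.8% held the Ebf-type letters, 13.0% the E-box and 13.7% the AP-2 letters, and the 3 motifs were not required to be free of overlap with each other. Windows were listed for 91 of the 119 members, of which 18 held the Ebf-type letters, 27 the E-box and 19 the AP-2 letters in at least 1 window (19.8%, 29.7% and 20.9% of the 91). Of the 27025 genes with a window, 13.4%, 14.7% and 15.4% did. Members had 126 windows in all, so windows per gene also differ, and the difference in shares was not tested. A match of letters is not a bound site.

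**Figure D3:**
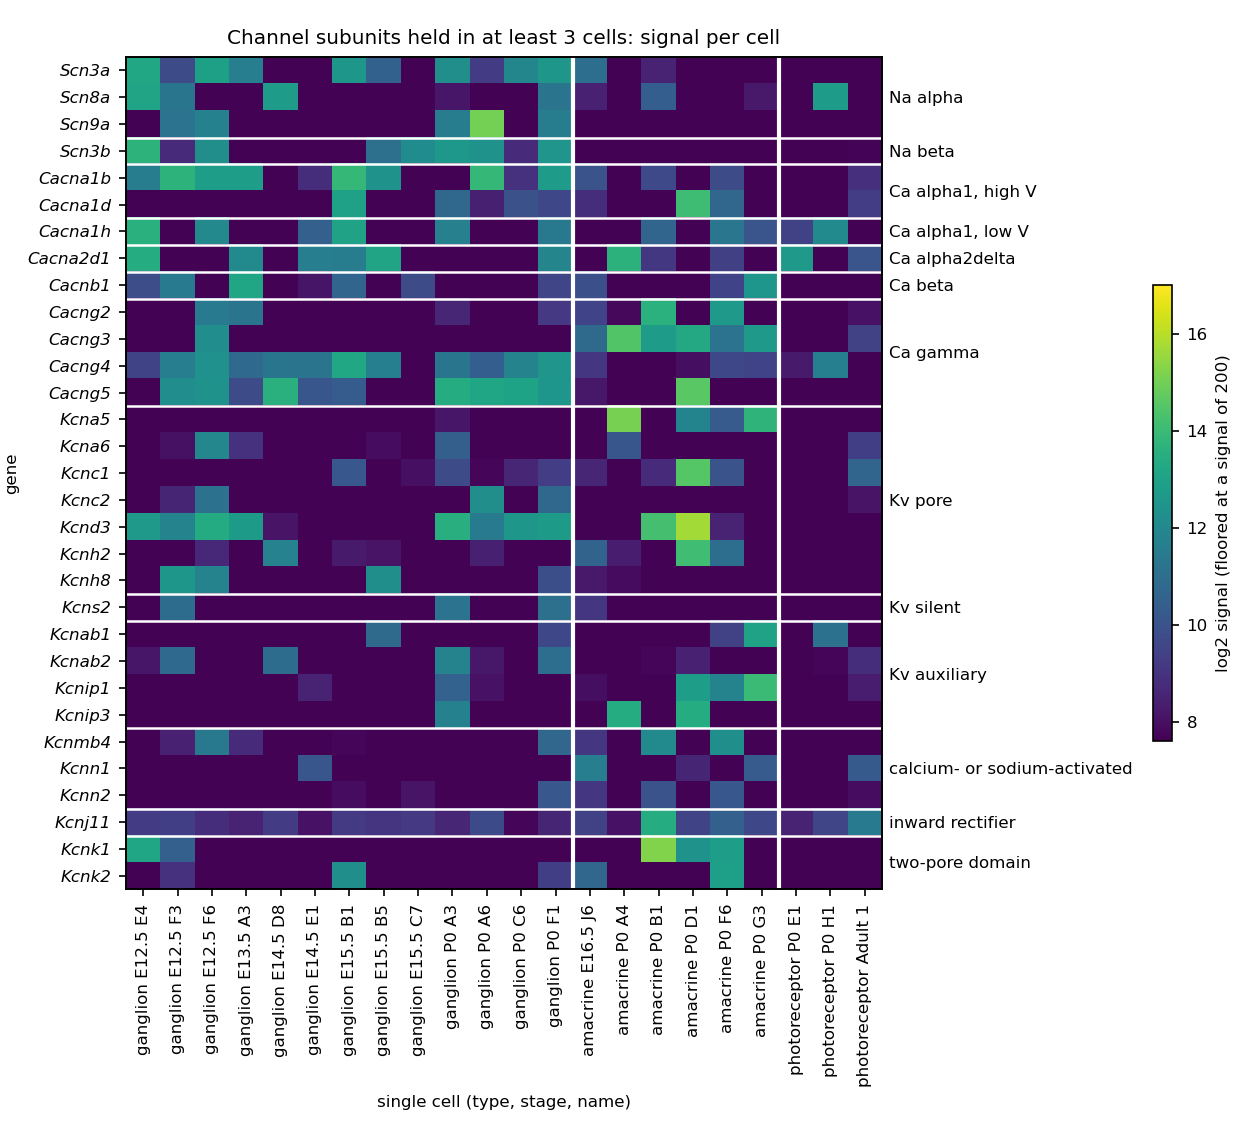
Log2 signal (colour, floored at a signal of 200) of the 31 subunits held in at least 3 cells (rows, grouped by subfamily) in each of the 22 cells (columns, by type and stage, white lines between types). The row of Cacng3 is bright in the amacrine columns and Cacng4 in the ganglion columns, while most other rows are bright in scattered cells.

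Kv pore subunits were held by 11 of 13 ganglion cells, all 6 amacrine cells and 1 of 3 photoreceptors. Kcnd3, a pore of fast inactivating A-type potassium channels, was held in 10 cells. Every P0 ganglion cell held it, at 11428, 2781, 6094.5 and 6722 in A3, A6, C6 and F1, as did all E12.5 cells and the E13.5 cell, at 3613.5 to 10741. The 5 cells of E14.5 and E15.5 were at most 276. Amacrine cells D1 and B1 had 52625 and 19279 while the other 4 were at most 365, and photoreceptors were under 200.

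Kcna5, a delayed rectifier pore, was held in 4 of 5 P0 amacrine cells, at 34426 in A4, 3643 in D1, 1250 in F6 and 13391 in G3. It was under 200 in amacrine cells B1 and J6. No ganglion cell held it, and the highest, P0 cell A3, had 291. Kcnh2, a pore of slowly deactivating currents, was held in 3 amacrine cells, with 17853 in D1, and in 1 ganglion cell, the E14.5 cell D8, at 3437.5. Kcnc1, a fast delayed rectifier of rapidly firing neurons, reached 23665 in amacrine cell D1 and was between 1034 and 1614.5 in the 3 other cells that held it. Its relative Kcnc2 was held in 3 ganglion cells, Kcnh8 in 3 ganglion cells and Kcna6 in 2 ganglion cells and 1 amacrine cell, at 1102 to 6047.5.

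The start of Kcna5 is shown because it was the Kv pore held most often in P0 amacrine cells. The window lies on GRCm38.p6 at chr6:126535556-126535805 on the minus strand, from RefSeq, and held none of the 3 motifs.
Kcna5: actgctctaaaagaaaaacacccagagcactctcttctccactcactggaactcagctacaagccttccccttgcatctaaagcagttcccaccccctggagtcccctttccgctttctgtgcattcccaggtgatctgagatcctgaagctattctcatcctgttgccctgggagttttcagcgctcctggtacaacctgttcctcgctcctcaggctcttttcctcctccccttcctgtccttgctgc
Its 250 bases were 53.2% G or C.

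Electrically silent Kv subunits form no channel alone and change the currents of other Kv pores. Only Kcns2 was held in 3 cells, all ganglion cells, at 1957 in E12.5 cell F3 and 2342 and 2136 in P0 cells A3 and F1. Of the Kv auxiliary subunits, 6 of 12 were held anywhere. Kcnip1, a calcium-binding subunit of A-type channels, was held in P0 amacrine cells D1, F6 and G3 at 7207, 3617 and 16379 and in P0 ganglion cell A3 at 1488. The cytoplasmic beta subunit Kcnab2 was held in 4 ganglion cells, at 1810 to 3589, and in no other cell, while Kcnab1 was held in 1 cell of each type.

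Among channels opened by calcium, Kcnmb4, a beta subunit of large conductance channels, was held in 2 ganglion and 2 amacrine cells at 1667 to 4951. Kcnn1, a small conductance channel, was held in amacrine cells J6 and G3 at 3136 and 1256, in E14.5 ganglion cell E1 at 1121 and in the adult rod at 1215.5. Kcnn2 was held in 3 cells at 1035 to 1131.5. The inward rectifier Kcnj11, the pore of ATP-sensitive channels, was at 200 or more in all 22 cells but was held in 3, at 11056 in amacrine cell B1, 1441 in F6 and 2935 in the adult rod. Of the two-pore channels, which give background potassium conductance, Kcnk1 was held in 2 E12.5 ganglion cells at 8933 and 1424 and in 3 P0 amacrine cells at 5495.5 to 37817. Kcnk2 was held in amacrine cells J6 and F6 and in E15.5 ganglion cell B1, at 1652, 7612 and 4962. The highest signals of Kcnj11, Kcnk1 and Cacng2 were all in amacrine cell B1, whose array was rescaled, and the part of the rescaling was not tested.

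**Figure D4:**
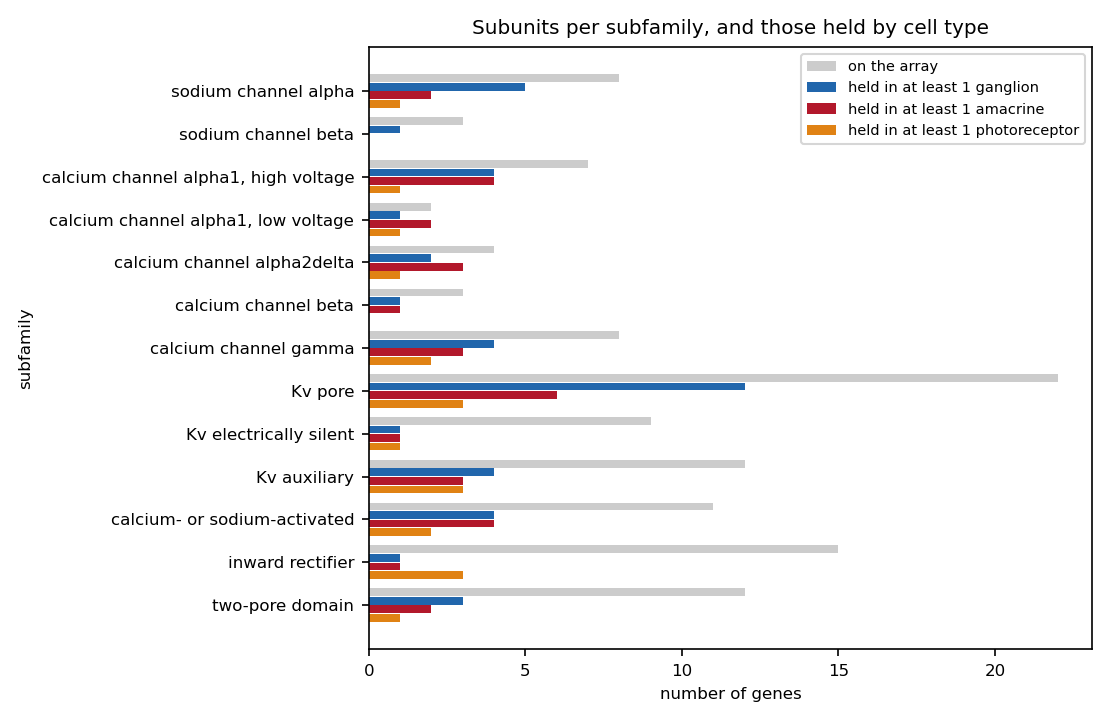
Number of genes of each subfamily on the array (grey) and number held at a signal of 1000 or more in at least 1 of 13 ganglion cells (blue), 6 amacrine cells (red) and 3 photoreceptors (orange). Ganglion cells held 12 of 22 Kv pore subunits and 5 of 8 sodium channel alpha subunits, and no amacrine cell or photoreceptor held a sodium channel beta subunit.

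The adult rod held 16 subunits, 11 of which no other cell held. Kcnip4, an A-type channel auxiliary subunit, had a signal of 181995 there and at most 531 elsewhere. Kcnv2, a silent subunit known for its part in the photoreceptor potassium current and in an inherited cone dystrophy, had 13062 in the rod and 669 and under 200 in the P0 photoreceptors. Cacna1f, the L-type channel of photoreceptor synapses, was at 1068 in the rod and under 200 in both P0 photoreceptors. These 3 genes were chosen after their values were seen. Of the 16, 11 stood between 1021 and 2000, and the rod's array also had 63 members at 200 or more and the raised median signal given above, whose part in these counts was not tested. A single adult cell allows no measure of spread.

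The comparison of ganglion with amacrine cells asks which subunits differ between the main output neurons of the retina and its interneurons. Cacng3 was the member furthest lower in ganglion cells, by 3.92 ± 1.19 on the log2 scale (SE of the contrast, 5 ganglion against 2 amacrine type-and-stage samples), with mean log2 levels of 7.95 and 11.87. Kcnn1, Kcna5 and Kcnh2 followed with differences of -2.09, -2.01 and -1.94. For Kcnn1 the amacrine log2 level was 11.61 in E16.5 cell J6, whose array had a raised median signal, and 8.36 on average at P0. Its difference shrank to as little as -0.46 when 1 cell was left out. On the other side, Cacng4, Cacng5, Scn3b and Cacna1b had differences of 2.33, 2.16, 2.10 and 1.94, and Scn3a had 1.18 ± 1.38. None of the 31 members tested passed an adjusted p of 0.05 (limma, Benjamini-Hochberg over 7184 genes), where 0.0696% of all genes did. The smallest adjusted p was 0.397, for Cacng3.

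Among the 31 members, 4 had an unadjusted limma p under 0.05, as did 3.94% of all genes tested, and the median difference was -0.16 for the members and -0.06 for all genes. With gene-wise variances none passed either. With the cells as units and their type-and-stage sample as a random block 2 passed, Cacng3 at -4.54 (adjusted p = 0.00872 by limma) and Kcna5 at -3.33 (adjusted p = 0.0297), where 0.251% of all genes did. All amacrine cells but J6 were of 1 sample. The p-values of this fit therefore rest mainly on the spread between cells that may share an animal. Kcna5 was among the genes tested only because 4 amacrine cells held it, and Cacng3 would not have been without its 6. Kcnn1 and Kcnh2 would not have been without amacrine cells either. Without ganglion cells the same holds for Cacng4, Cacng5, Scn3b, Cacna1b and Scn3a, each held in at most 1 other cell. The filter itself therefore favoured a difference in all of these genes. Without the E16.5 amacrine cell J6, which leaves 1 amacrine sample assumed to vary like the other groups, Kcna5 passed at -4.04 (adjusted p = 0.0218 by limma), as did 0.0428% of all genes. Without both J6 and the adult rod the difference was the same and did not pass (adjusted p = 0.0678 by limma). Scn3a was then 2.77 higher in ganglion cells, against 1.18 with J6.

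**Figure D5:**
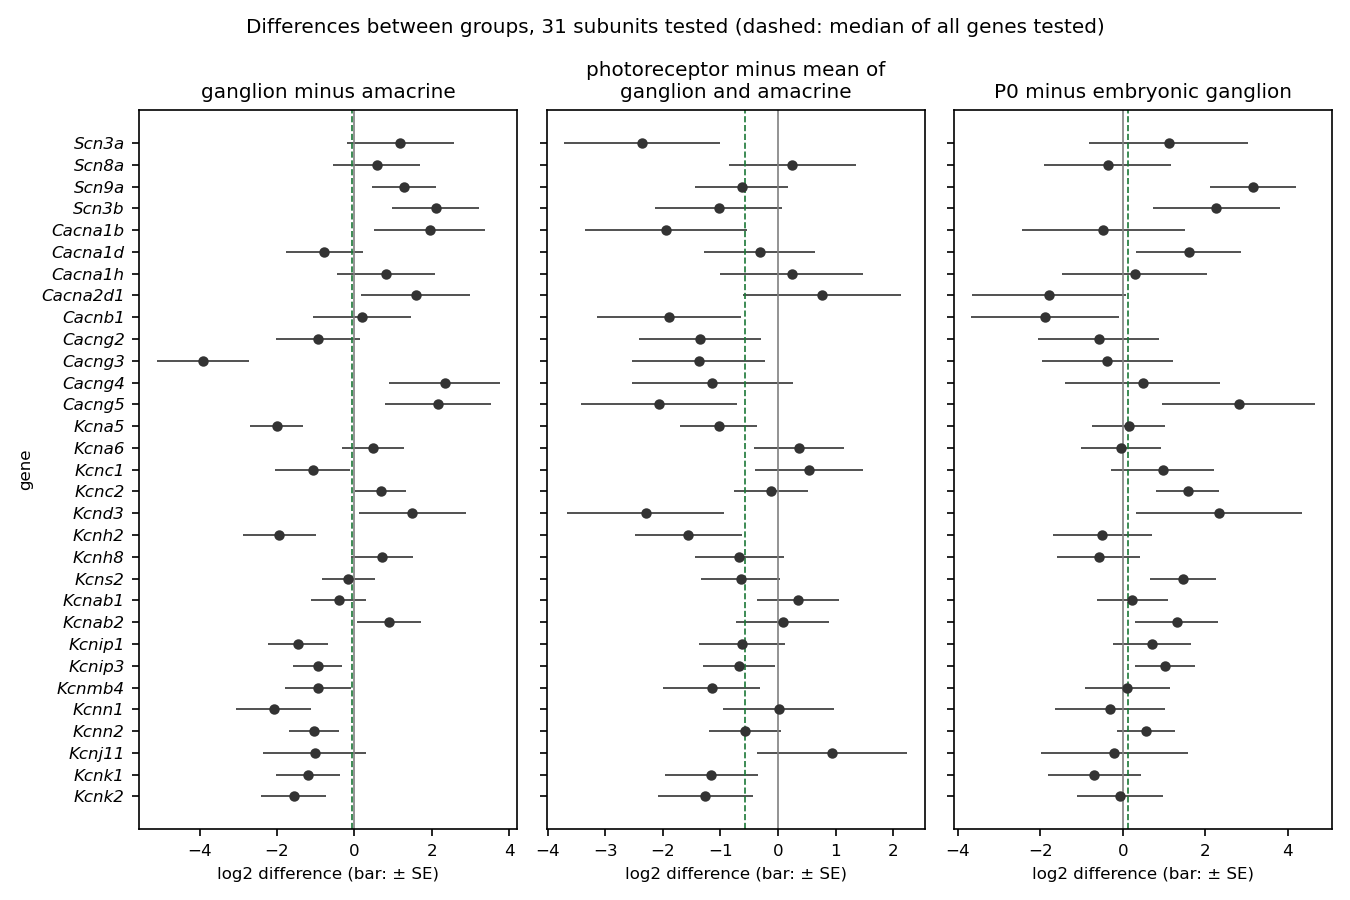
Log2 difference (points) with the standard error of the contrast (bars) for the 31 subunits tested, in 3 comparisons of type-and-stage samples, with the median of all 7184 genes dashed. Cacng3 stands lowest in the ganglion minus amacrine panel at -3.92 and Scn9a highest in the stage panel at 3.16, and no member passed the adjusted p of 0.05.

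At birth the 4 ganglion and 5 amacrine cells can be set side by side with no difference in age, though each set is 1 sample without a test. Among the members, 3 were at least 4-fold higher in ganglion cells with no overlap of cells: Scn3b by 3.91, Scn3a by 3.67 and Cacng4 by 3.03 on the log2 scale. Of all 7184 genes, 1.52% did so. Cacng3 was the 1 member past 4-fold in the other direction, at -5.23, where 0.251% of all genes were. Its mean log2 level was 12.88 ± 1.18 (SD, n = 5 cells) in amacrine cells, and all 4 ganglion cells were at the floor, so the size depends on the floor. Without the cell type where it was higher, none of these 4 members would have been held in 3 cells. The filter itself therefore favoured these differences. Cacng5 at 4.0, Scn9a at 3.79, Kcna5 at -3.93 and Kcnk1 at -3.52 were as far apart in the mean but overlapped in at least 1 cell. Leaving out amacrine cell B1 or D1 or ganglion cell C6 gave 5 members in place of 4.

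The comparison of photoreceptors with the mean of ganglion and amacrine cells gave the lowest differences for Scn3a (-2.36 ± 1.36), Kcnd3 (-2.30), Cacng5 (-2.07), Cacna1b (-1.94) and Cacnb1 (-1.90). Kcnh2, Cacng3 and Cacng2 followed at -1.56, -1.38 and -1.36. Kcnj11, Cacna2d1 and Kcnc1 had the highest, at 0.94, 0.76 and 0.54. The log2 level of Kcnj11 was 11.52 in the adult rod and 9.03 on average in the P0 photoreceptors. The other positive differences named by the rule, of Kcna6, Kcnab1, Scn8a, Cacna1h and Kcnab2, were 0.08 to 0.36. No member passed, where 2.12% of all genes did, and no member had an unadjusted limma p under 0.05, against 12.2% of all genes. The fit with cells as units also called 0, and so did gene-wise variances, under which 3 members were under 0.05 unadjusted. The smallest adjusted p of a member was 0.489 (limma). The median difference was -0.67 for the members and -0.57 for all genes tested.

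Over development, P0 ganglion cells were compared with the 4 embryonic stages as samples. The P0 group was 1 sample, the mean of 4 cells, and was assumed to vary like the other groups. The SE of this contrast therefore holds no spread between P0 cells. Scn9a had the largest difference, 3.16 ± 1.04 (log2, SE), followed by Cacng5 at 2.81, Kcnd3 at 2.34, Scn3b at 2.27, Cacna1d at 1.60, Kcnc2 at 1.57, Kcns2 at 1.47 and Kcnab2 at 1.31. On the other side stood Cacnb1 at -1.89, Cacna2d1 at -1.80 and Kcnk1 at -0.69. Kcnh8, Cacng2, Kcnh2, Cacna1b and Cacng3 were between -0.59 and -0.38. Scn3a was at 1.12 ± 1.93. No member passed, where 0.0278% of all genes did, the smallest adjusted p was 0.729 for Scn9a (limma), and 2 members had an unadjusted limma p under 0.05, as did 2.99% of all genes. Gene-wise variances and cells as units also called 0. With no filter on low values 6 of 119 members passed, where 2.29% of all 18194 genes did. Of the 6, Kcnk15, Kcnmb1, Kcnq5 and Scn4b were held in no cell, and Kcnd2 and Scn2a in 1 P0 ganglion cell each.

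Several of these differences came from the middle stages. Scn3a and Scn3b were under 200 in both E14.5 cells and Kcnd3 was at most 276 in the 5 cells of E14.5 and E15.5. Without the E13.5, E14.5 and E15.5 cells their differences were -0.49, -0.01 and -0.08. Scn9a was under 200 in every cell of those stages, and without these cells its difference fell from 3.16 to 1.26. Kcnc2 then fell from 1.57 to 0.46 and Kcns2 from 1.47 to 0.64, while Cacna1d rose from 1.60 to 2.04. Scn9a, Kcnc2, Kcns2 and Kcnab2 were each held in fewer than 3 cells outside P0, so the filter favoured their differences. The progenitor, lens and blood transcripts listed above were held in the same E14.5 cells, and their part in the result was not tested. Cacng5 was 1.55 or more higher at P0 under every alternative run.

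Between the 4 P0 and the 3 E12.5 ganglion cells, 2 members were at least 4-fold higher at P0 with no overlap, Cacng5 by 2.28 and Cacna1d by 2.04, and none was lower. The shares over all genes were 2.12% higher and 2.95% lower. Cacng5 had 4760.5 and 5462 in E12.5 cells F3 and F6 and was under 200 in E4, against 5894 or more in every P0 cell. Cacna1d was under 200 in all E12.5 cells and 1743, 343, 971 and 787.5 in P0 cells A3, A6, C6 and F1, so only A3 held it. Leaving out P0 ganglion cell A3 or C6 left 1 member, and leaving out E12.5 cell F6 gave 5.

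The genes whose log2 signal followed Scn3a most closely over the 22 cells were Crip2 (Pearson 0.86), Nell2 (0.83), Camk1 (0.81), Mapk9 (0.72) and Slco5a1 (0.72), of 7184 genes ranked. For Cacng3 they were Tfap2b (0.88), Thtpa (0.86), Tfap2a (0.84), Trmt1l (0.81) and Gad1 (0.77). Tfap2a and Tfap2b code for AP-2 transcription factors and Gad1 for a GABA-synthesising enzyme, all in the list of amacrine markers. Tfap2b was held in the same 6 amacrine cells as Cacng3 and in no ganglion cell, while Cacng3 was also held in E12.5 ganglion cell F6. The cells share type and stage, so these values describe co-occurrence in these 22 arrays.

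Genes that work with these channels but lie outside the symbol rule gave few calls. Of 14 other voltage-gated channel genes, such as the Hcn pacemaker family, 11 were measured and 3 tested. In each of the 3 comparisons 0 passed and 0 had an unadjusted p under 0.05 (limma), and gene-wise variances and cells as units also called 0, each with 1 unadjusted p under 0.05, between P0 and embryonic ganglion cells. Of 43 partners and anchors, 35 were measured and 22 tested, and 0 passed between ganglion and amacrine cells or between P0 and embryonic ganglion cells by limma, gene-wise variances or cells as units. Their unadjusted limma p was under 0.05 in 3 and 2 cases respectively. In photoreceptors 1 passed in each direction (limma), and 1 in all passed with gene-wise variances and 2 with cells as units. Sptbn1, a spectrin of the membrane skeleton, was held in all 13 ganglion and all 6 amacrine cells and no photoreceptor (difference -4.87 ± 1.37, adjusted p = 0.0244 by limma). Unc80, part of the sodium leak channel complex, was held in 2 photoreceptors and 1 amacrine cell (2.78 ± 0.84, adjusted p = 0.0477 by limma). Unc80 was among the genes tested only because 2 photoreceptors held it, so the filter itself favoured this difference. Nfasc and Cntn2, cell adhesion proteins of the axon initial segment and node, were held in 10 and 6 ganglion cells and no amacrine cell. Their differences of 3.64 and 3.28 did not pass, and they are named after their values were seen. Other genes of the list did not share this pattern. Ank3 was held in 9 ganglion and 5 amacrine cells (difference -0.02) and Cntnap2 in 10 and 3 (-0.10).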

How the data were processed

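The values are signal intensity on a linear scale as deposited by the authors, who computed them with MAS5 per the submitters' processing notes. For scanner settings and the annotation version, nothing is given in the sources used here. Of 45101 probe sets, 34958 carried 1 gene symbol, 932 several and 9211 none, and only the first kind was used. All 119 members were matched to the RefSeq gene table by gene number, with 0 renamed.

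One array was scaled to the 2% trimmed mean of 500 that the other 21 already had. Signals under 200 were raised to 200, and 7184 genes with a signal of 1000 or more in at least 3 cells were tested. The cells of each type and stage were averaged on the log2 scale, which gave 9 samples, of which 5 were ganglion, 2 amacrine and 2 photoreceptor. The lmFit and trended eBayes functions of limma 3.58.1 (R 4.3.3) gave the tests, which were tried first on simulated data, with p-values adjusted by the Benjamini-Hochberg method over all genes tested. The fit by type had 6 residual degrees of freedom and that by ganglion stage 5. The prior degrees of freedom were infinite by type and 40.3 by stage. By type, the limma SE and p of a gene therefore rest on the variance trend over all genes, not on that gene's own spread. Groups of 1 sample against 1 were compared without a test, by a 4-fold difference (2 on the log2 scale) and no overlap of cells.

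The members and lists were chosen with earlier results of these data known. Named members were Scn3a and Cacng3, any that passed (none did), the 8 largest differences in each direction of each comparison, those held most widely in a type or subfamily, and those past the rule for single samples. The 5 genes most like Scn3a and Cacng3 by Pearson correlation were also named. Of the 31 members tested, 23 had several probe sets, and in 4 more than 1 of these was held in at least 3 cells. Cacna1b, Cacna1d and Scn9a were read by probe sets of a kind that can match other transcripts. Alternatives covered the floor, an added constant, the normalization, the probe set, the filter, the variance model, the unit of analysis, the held level and each cell. The number of arrays limits the precision.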

Additional observations from a re-analysis of the deposited data

Results flagged for a closer look

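In the groups of 4 P0 ganglion cells and 5 P0 amacrine cells, the highest or lowest cell stood far from the rest in 22 of 57 sets of values examined. Chance gives about 5% of sets, and many sets here had every other cell at the floor (a signal of 200), so that any cell above it stood apart.

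Among P0 ganglion cells, F1 was the high cell for Cacna2d1 (log2 signal 11.89), Cacnb1 (9.57), Kcnab1 (9.62), Kcnh8 (9.86), Kcnk2 (9.34), Kcnmb4 (10.70), Kcnn2 (10.14) and Scn8a (11.21). Cell A3 was the high cell for Kcna5 (8.18), Kcna6 (10.44), Kcnip1 (10.54) and Kcnip3 (11.72), and A6 for Kcnh2 (8.42). Cell C6 was the low cell for Scn3b, at 8.71 against 12.42 or more in the other 3.

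Among P0 amacrine cells, A4 was the high cell for Cacna2d1 (13.63), Kcna6 (10.11) and Kcnh8 (7.88), and D1 for Cacng5 (14.61) and Kcnab2 (8.47). Cell F6 was the high cell for Kcnk2 (12.89). Cell B1, the rescaled array, was the high cell for Scn3a (8.55) and Scn8a (10.40).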

How the results depend on the processing

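No paired analysis was possible because the cell names pair no cells between groups. The probe set choice by linear signal was added after the data were seen, and left every count of members within 1.5 times. The counts of 0 members called held under each alternative in the photoreceptor comparison. Between ganglion and amacrine cells the fit with cells as units gave 2, and between P0 and embryonic ganglion cells no filter gave 6 of 119 (417 of all 18194 genes, against 2 of 7184). Leaving out each cell gave 0 to 1, 0 to 0 and 0 to 0 members called in the 3 comparisons. The 4 members past 4-fold at P0 became 1 with the mean over probe sets (4 to 5 without each cell). The 2 between P0 and E12.5 became 1 with quantile normalization or medians over cells and 0 with the mean over probe sets (1 to 5 without each cell). Members held in at least 3 cells fell from 31 to 15 with the mean over probe sets and to 20 at a level of 2000 (28 to 31 without each cell). The amacrine median of 9.5 subunits per cell became 6 at a level of 2000 and lay between 13 and 14 at 500. The photoreceptor median of 4 became 10 without P0 cell E1 and 2.5 without the rod. Of 49 member differences, 35 kept their sign in every fit run. Fits in which a member fell under the filter are missing from this count. Kcnj11 in photoreceptors had 19 fits leaving out 1 cell, where Cacna2d1 had 22. It was held in only 3 cells, the rod among them, so no fit without the rod was run for it. In photoreceptors Kcnab2 turned to -0.51 with quantile normalization, -0.22 with cells as units, -0.53 without J6 and the rod and -0.24 without the E13.5 to E15.5 cells. Cacna1h (-0.25) and Scn8a (-0.10) also turned without those cells, Scn8a with a floor of 50 (-0.09), Kcnc1 with cells as units (-0.23), and Kcna6 (-0.61) and Kcnc1 (-1.25) without J6 and the rod. Without J6 and the rod Kcnd3 turned to -0.06 between ganglion and amacrine cells. Without the E13.5 to E15.5 cells Scn3b (-0.01), Kcnd3 (-0.08) and Scn3a (-0.49) turned between P0 and embryonic ganglion cells. Leaving out 1 cell turned the sign at an end of these ranges: Cacna1b -1.49 to 0.58, Cacng2 -0.89 to 0.20 and Kcnh2 -1.01 to 0.01 by stage; Kcnd3 -0.06 to 2.11 between ganglion and amacrine cells; in photoreceptors Cacna1h -0.43 to 1.79, Cacna2d1 -0.49 to 2.01, Kcna6 -0.49 to 0.43, Kcnab1 -0.01 to 1.22, Kcnab2 -0.49 to 0.25, Kcnc1 -0.97 to 0.84 and Scn8a -1.03 to 1.53. The cause was not tested. The number of arrays and the floor limit differences of genes near 200.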

Other observations

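Of the 3 noncoding RNAs that the symbol rule took in, each was held in 1 cell. Kcnq1ot1, an imprinted RNA known for silencing its neighbours, had a signal of 12010 in E12.5 ganglion cell E4 and at most 219 elsewhere. Kcnmb4os1 had 1647 in the adult rod, and Kcnmb4os2 had 1278 in amacrine cell J6, the cells with the 2 highest median signals.

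Some subunits held in 1 or 2 cells were far above the level of 1000 in 1 of them. Kcnh1, a slow potassium channel, had 10829 in P0 ganglion cell A6 and 1021 in the adult rod, and was held in no other cell. Cacna1e, the R-type calcium channel, had 7407 in P0 amacrine cell D1, and Cacna1g, a T-type channel, had 6294 in P0 amacrine cell A4. Kcna1, a low threshold potassium channel of axons, had 4750 in E14.5 ganglion cell D8. These genes were chosen after their values were seen, and with so few cells they allow no measure of spread.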
